A study of Mus musculus with 4 samples.

Results

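Loss of Trp53 was described here on a background with Zfp871 intact, as 1 RNA sequencing library of Trp53-/- mouse embryonic fibroblasts against 1 library of wild type (WT) cells. The members are the genes with a CPM (the count scaled by the library's total) of at least 1 in at least 1 of these libraries, which kept 13709 of the 54532 gene IDs of the count table. The cells are primary C57BL/6 fibroblasts grown out of embryos of 12.5 to 13.5 days post-coitum, and RNA was taken at passage 4 from cultures that were still dividing. Per the series description, WT and Trp53-/- cells could come from 1 intercross of Zfp871+/-; Trp53+/- mice, and WT cells also from a Zfp871+/- intercross. The sources used here do not say which cross the sequenced WT cells came from, how many embryos went into a culture or what the Trp53 allele lacks. The series also holds a Zfp871-/- library and a Trp53-/-; Zfp871-/- library (double null below). The pair made of these other libraries differs by Trp53 as well and shares no library with Trp53-/- and WT, so its values are set beside the members' values, with no test of the difference. Each genotype had 1 library, so no difference below has a replicate check, no test was run, and each ratio compares libraries rather than genotypes. In bulk RNA, fewer cells of a type and less RNA per cell cannot be told apart.

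Trp53 encodes p53, a transcription factor that is kept scarce by the ubiquitin ligase Mdm2 and is stabilized by DNA damage and other stress. It binds pairs of half-sites in DNA and switches on genes that stop the cell cycle, trigger cell death, repair DNA and adjust metabolism. Genes of cell division are lowered by p53 mainly through its target Cdkn1a, which restrains the cyclin-dependent kinases and so lets repressor complexes occupy division promoters. Cultured fibroblasts engage this pathway from oxygen and plating stress, and fibroblasts without p53 are known to keep dividing where normal cells stop.

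The libraries held 19303167 counts in WT and 21004078 in Trp53-/-, against 19974054 in Zfp871-/- and 22324599 in the double null. Ratios are log2 ratios of Trp53-/- to WT after TMM normalization, with the exact 95% interval of counting error in brackets, and levels are normalized CPM unless FPKM (per length) is named. Trp53 itself (chr11:69580359-69591873, GRCm38) had 2383 counts in WT and 1233 in Trp53-/-, a log2 ratio of -1.16 (-1.26 to -1.06). It had 2413 counts in Zfp871-/- and 1382 in the double null. Counts over a whole gene do not show which exons an allele has lost, so this number does not check the genotype by itself. Zfp871 did not differ beyond counting error, with 660 and 784 counts and a log2 ratio of 0.04 (-0.11 to 0.19). The fibroblast genes Col1a1, Col3a1, Vim and Thy1 were abundant in all 4 libraries, with at least 6549 counts each.

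Some cell type markers moved with the groups, and the WT library stood apart in cartilage genes. The 18 kept cartilage genes summed to 1737 CPM in WT and 149 in Trp53-/-, beside 556 CPM for Zfp871-/- and 207 for the double null, so WT lay far above the other p53-intact library. The 32 kept macrophage genes summed to 360 CPM in WT and 321 in Zfp871-/-, against 1972 in Trp53-/- and 1866 in the double null. Of 25 markers of other leukocytes, 18 had 0 counts in WT and 18 had 0 in Trp53-/-, Cd3e of T cells among them, and only Itgax was kept (0 and 23 counts). Lists of these genes are given below together with the values of the pair that does not use WT. Xist was present in both libraries of the pair, with 12139 counts in WT and 12564 in Trp53-/-.

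Among 13709 genes, 1269 showed a level at least 2-fold higher in Trp53-/- than in WT (9.26%) and 1407 at least 2-fold lower (10.3%). The whole counting interval lay past 2-fold for 861 higher genes (6.28%) and 957 lower genes (6.98%). Ratios past 8-fold were seen for 282 higher and 293 lower genes. The median log2 ratio was -0.0044, and the middle of the distribution was narrow, with quartiles at -0.38 and 0.34. A part of these counts follows from the filter, because a gene that passed in 1 library only had to differ. The 12307 genes with a CPM of at least 1 in both libraries held 774 higher and 860 lower genes. The 715 genes that passed only in Trp53-/- held 495 higher genes, and the 687 that passed only in WT held 547 lower ones. Between the double null and Zfp871-/-, 782 of the 13709 genes were 2-fold higher (5.7%) and 946 were 2-fold lower (6.9%). Of the 1269 higher genes 600 (47.3%) were past 2-fold in the same direction in that pair, and of the 1407 lower genes 708 (50.3%). Only 23 of the higher and 12 of the lower genes were 2-fold apart in the opposite direction there.

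**Figure D1:**
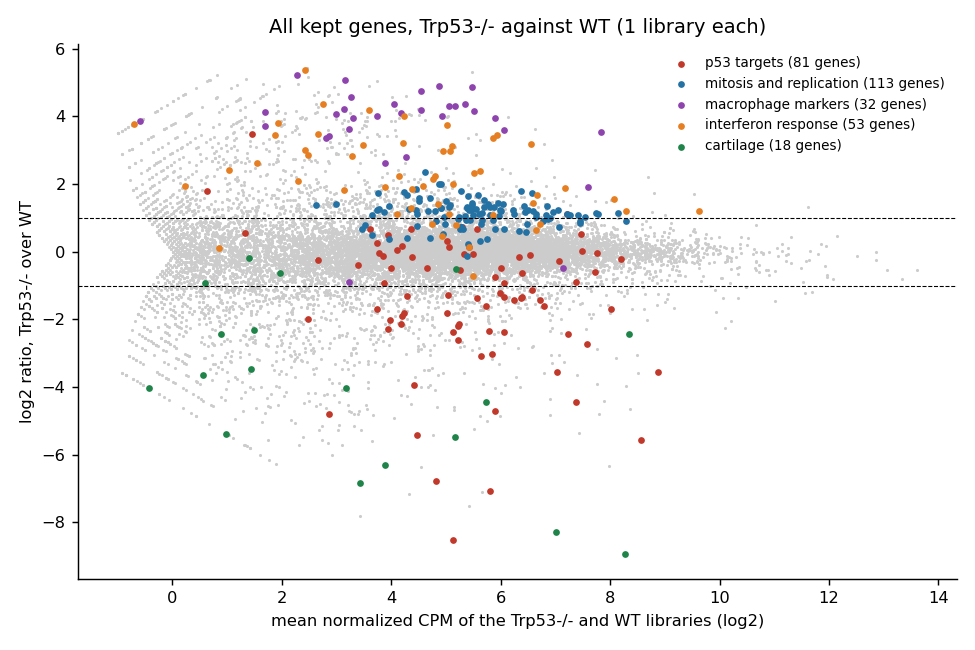
Log2 ratio of Trp53-/- to WT (vertical axis) against the mean normalized CPM of both libraries (horizontal axis, log2) for the 13709 genes, with 1 library per genotype. Dashed lines mark 2-fold, grey points are all genes and coloured points are gene lists: p53 targets and cartilage genes lie mostly below the lower line, and macrophage, interferon and cell division genes mostly above 0.

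Targets of p53 that stop the cell cycle were far lower in Trp53-/- than in WT. Of 20 such genes, all kept, 14 were at least 2-fold lower and none was higher, with a median log2 ratio of -2.10. In the pair without Zfp871 the same 14 genes were past 2-fold and the median was -1.44. The 18 genes with a CPM of at least 1 in both Trp53-/- and WT held 12 of the lower ones and had a median of -1.90. Cdkn1a, the inhibitor of cyclin-dependent kinases p21, had 13979 counts in WT and 341 in Trp53-/-, and 13103 and 341 in Zfp871-/- and the double null. The log2 ratio was -5.56 (-5.73 to -5.41), and both p53-null libraries lay far below both p53-intact ones. Inka2, an inhibitor of the kinase Pak4, was nearly silent without p53, with 1313 counts in WT and 2 in Trp53-/- and a log2 ratio of -8.53 (-12.62 to -7.71). Psrc1, a microtubule-binding protein, had 2158 and 94 counts, and Rprm, a gene of G2 arrest, had 267 and 9. Ccng1, the cyclin G1 gene whose product feeds back on p53 and Mdm2, had 16224 counts in WT and 1607 in Trp53-/-. The log2 ratio of -3.55 (-3.62 to -3.47) stood against -3.73 in the pair without Zfp871. Btg2, Phlda3 and Sfn, which restrain proliferation, Akt signalling and mitotic entry, had log2 ratios of -3.04, -2.74 and -2.28.

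Per length, Ccng1 (243 FPKM), Phlda3 (211 FPKM) and Cdkn1a (207 FPKM) had the highest levels of the arrest targets in WT. In Trp53-/- the levels of these genes were 20.8, 31.5 and 4.37 FPKM. Not all arrest targets were lower. Gadd45a, a stress protein that binds Cdkn1a and Pcna, had 231 counts in WT and 318 in Trp53-/-, a log2 ratio of 0.25 (0.00 to 0.50). Plk2 and Plk3, polo-like kinases of stress responses, had log2 ratios of 0.51 and 0.50 in this pair, and of -0.26 and -0.17 between the double null and Zfp871-/-. Ier5 lay close to equality at -0.26.

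Matches to the p53 response element were searched in RefSeq promoter windows (GRCm38.p6) of 250 bases before and 50 bases after each start. A match is a pair of half-sites with at most 1 base between them, the central C and G of each half-site intact and at most 2 other mismatches. Because the element reads alike on both strands, 1 search covers both. Such a match stood in 0.682% of the 32851 promoters. Counted per gene, it stood in 0.807% of all genes with a promoter in the table, in 0.941% of the kept genes with one and in 6 of the 70 such p53 target genes (8.57%): Cdkn1a, Ccng1, Bax, Ckap2, Gtse1 and Zfp365. The Cdkn1a promoter below is shown whole up to its start because this gene had the lowest log2 ratio among the targets with a match. The start belongs to a longer Cdkn1a transcript, and the capitals mark the match (chr17:29090928-29090947, plus strand).
Cdkn1a, chr17:29090729-29090978, plus strand: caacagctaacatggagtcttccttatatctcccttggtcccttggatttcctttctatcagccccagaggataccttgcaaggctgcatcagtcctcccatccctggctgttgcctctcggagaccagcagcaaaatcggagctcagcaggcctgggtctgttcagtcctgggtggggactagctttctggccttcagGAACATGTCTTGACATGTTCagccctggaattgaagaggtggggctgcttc
Shorter stretches are given for 4 more genes that were lower in Trp53-/-, with the match in capitals and 20 bases on either side, written in the direction of the gene.
Ccng1, chr11:40755442-40755501, minus strand: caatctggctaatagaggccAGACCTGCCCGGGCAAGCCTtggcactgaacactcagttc
Bax, chr7:45467059-45467119, minus strand: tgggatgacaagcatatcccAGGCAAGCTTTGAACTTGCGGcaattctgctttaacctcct
Zfp365, chr10:67912686-67912745, minus strand: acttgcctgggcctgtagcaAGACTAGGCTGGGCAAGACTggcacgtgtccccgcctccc
Rps27l, chr9:66946276-66946335, plus strand: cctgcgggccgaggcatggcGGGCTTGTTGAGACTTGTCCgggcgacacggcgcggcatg
The Bax match overlaps a TTTGAA, the letters of the CHR motif described below. Rps27l, a ribosomal protein relative that is a known p53 target outside the lists, had 3081 counts in WT and 1536 in Trp53-/-, a log2 ratio of -1.21 (-1.30 to -1.13). Its log2 ratio in the pair without Zfp871 was -0.65. Over all 97 kept genes with a match, 17 were 2-fold lower (17.5%) and 6 were 2-fold higher (6.19%), beside 9.75% and 8.65% of the 10303 kept genes with a promoter. Those 17 include the listed targets Cdkn1a, Ccng1, Bax, Gtse1 and Zfp365, and Rps27l. Their share is therefore not independent of known targets. Also among the lower genes, 1700007K13Rik, Lrrtm3, Alox12 and Gm15987 passed the filter only through WT. Of the higher genes, Susd1, Upk3b and Smim10l2a passed only through Trp53-/-. Many p53 elements lie outside such windows, and a match of letters is not a bound site.

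Targets of p53 in cell death were lower as well, with 13 of 22 at least 2-fold lower and a median log2 ratio of -1.35. In the pair without Zfp871 14 of the 22 were at least 2-fold lower. The 19 with a CPM of at least 1 in both Trp53-/- and WT held 11 lower genes and no 2-fold higher one, with a median of -1.28. Eda2r, a death receptor of the TNF receptor family, had 2107 counts in WT and 16 in Trp53-/-, with 2557 and 26 in the other pair. This gave a log2 ratio of -7.07 (-8.06 to -6.55). Perp, a membrane protein of desmosomes and apoptosis, had 1052 and 9 counts, and its level was also unequal between the p53-intact libraries, with 439 counts in Zfp871-/-. The BH3-only genes Pmaip1 (Noxa) and Bbc3 (Puma), which set off mitochondrial apoptosis, had 1207 and 227 counts and 553 and 179 counts. Their log2 ratios were -2.61 (-2.83 to -2.42) and -1.83 (-2.09 to -1.59). Bax, the pore-forming member of the same pathway, had 2898 and 1255 counts and a log2 ratio of -1.42, while its relative Bak1 lay at -0.14. The death receptor genes Tnfrsf10b and Fas had log2 ratios of -2.37 and -2.03. Casp1, the inflammatory caspase, was the only member past 2-fold higher, with 7 counts in WT and 111 in Trp53-/-, and 1 and 85 in the other pair. Casp1 is also expressed by macrophages, whose markers moved with it, and their part in it was not tested.

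Among targets of DNA repair and metabolism, 15 of 39 were 2-fold lower and 2 were 2-fold higher, with a median log2 ratio of -0.47. The 37 with a CPM of at least 1 in both libraries held 14 lower and 1 higher, and their median was also -0.47. Ddit4l, a brake on mTOR, had 823 counts in WT and 20 in Trp53-/-. Ephx1, an epoxide hydrolase of detoxification, had 5970 and 318 counts, and Ak1, which balances adenine nucleotides, had 4570 and 445. Their log2 ratios were -5.43 (-6.29 to -4.94), -4.43 (-4.61 to -4.28) and -3.57 (-3.72 to -3.43). The thiamine transporter Slc19a2 lay at -3.09, the nuclease of nucleotide excision repair Ercc5 at -2.33 and the lesion-bypass polymerase Polk at -1.62. Sesn2, an inhibitor of mTORC1, had a log2 ratio of -1.42, whereas Sesn1 lay at 0.05 with 320 and 384 counts and Rrm2b, the p53-inducible ribonucleotide reductase, at -0.05. Pcna and Polh, which act at the replication fork, were higher at 1.10 and 0.72. Across the 3 target lists 42 of 81 genes were at least 2-fold lower, and 41 of these 42 were at least 2-fold lower between the double null and Zfp871-/- too. The lists hold genes known to respond to p53, so their direction is not independent evidence.

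Among the 26 regulators of p53 kept, 5 were 2-fold lower and 2 were 2-fold higher, and the median log2 ratio was 0.0003. The lower ones were Trp53 itself, its feedback genes Mdm2, Ccng1 and Trp53inp1, and Trp63, a relative of p53, at -3.21. Mdm2 (chr10:117688875-117710758) had 5875 counts in WT and 1397 in Trp53-/-, a log2 ratio of -2.28 (-2.37 to -2.20). It had 7786 counts in Zfp871-/- and 1523 in the double null, so both p53-null libraries lay below both p53-intact ones. Trp53inp1, which helps p53 drive apoptosis, had 4305 and 241 counts and a log2 ratio of -4.36. Mdm4, the relative of Mdm2 that binds p53, lay at -0.23 and the phosphatase Ppm1d at -0.56. Cdkn2a, the locus of p16Ink4a and of p19Arf that restrains Mdm2, was higher, with 1042 counts in WT and 3652 in Trp53-/-. At 1.60 its log2 ratio stood beside 2.80 in the pair without Zfp871. Counts per gene do not separate the Cdkn2a transcripts. Chek1, the replication checkpoint kinase, had 152 and 428 counts and a log2 ratio of 1.27.

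**Figure D2:**
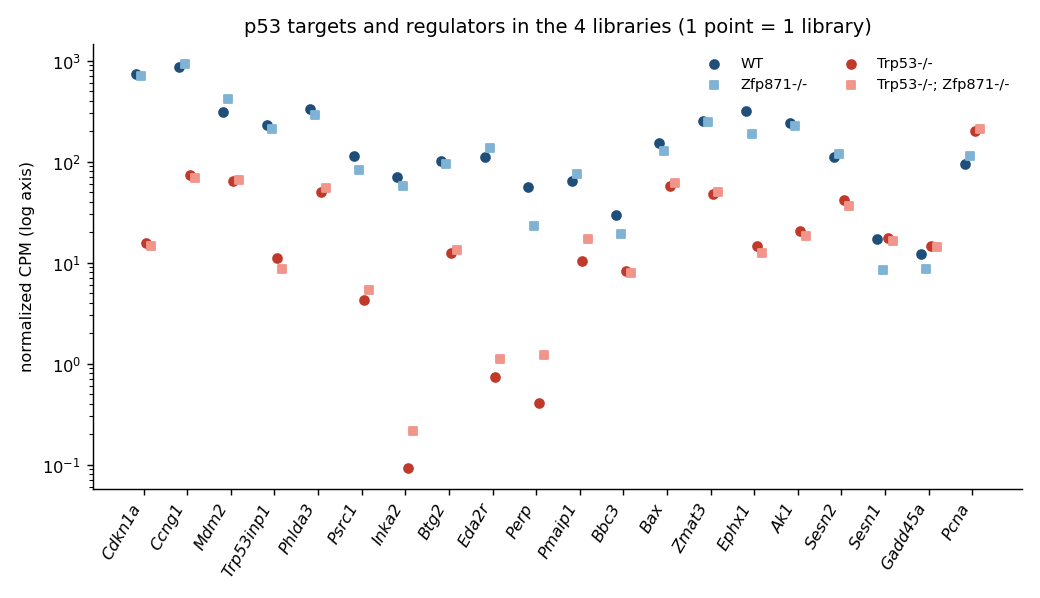
Normalized CPM (log axis) of 20 p53 targets and regulators in the 4 libraries, 1 point per library. For Cdkn1a to Sesn2 both p53-null libraries (red) lie below both p53-intact libraries (blue), while Sesn1 and Gadd45a do not separate in this way and Pcna lies higher in the p53-null libraries.

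Of the long noncoding RNAs with at least 50 counts, Gm42047 had the lowest log2 ratio. This lincRNA (ENSMUSG00000110631, chr8:121833247-121841178, plus strand) had 6330 counts in WT and 176 in Trp53-/-, and 6770 and 136 in the other pair. Its log2 ratio was -5.36 (-5.60 to -5.16), close to that of Cdkn1a, and at 59.1 FPKM in WT it was as abundant per length as Mdm2 at 60.9 FPKM. Ptprv, a transcript known to respond to p53 in the mouse, had 134 and 8 counts. Trp53cor1 (lincRNA-p21), a p53-induced RNA next to Cdkn1a, had 35 counts in WT and 9 in Trp53-/-, a log2 ratio of -1.94 (-3.41 to -1.09). Neat1, the RNA of paraspeckles, had 3764 and 2866 counts with a log2 ratio of -0.60, but 1609 and 3104 in the other pair. Pvt1 lay at -0.79. Mir17hg, host of the miR-17 cluster, was higher at 1.20. Because no strand setting is stated for the counting, RNAs that overlap another gene are uncertain.

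Genes of the cell cycle were higher in Trp53-/- than in WT as a block. All 57 mitosis genes had a positive log2 ratio with a counting interval above 0, and 41 of them were at least 2-fold higher. The median was 1.14 and the lowest value 0.38. Of 56 replication genes 36 were at least 2-fold higher and none lower, with a median of 1.17, and of 33 recombination and Fanconi genes 18 were at least 2-fold higher, with a median of 1.24. The summed level of the mitosis genes was 2491 CPM in WT and 5356 in Trp53-/-, with 3636 CPM for Zfp871-/- and 5721 for the double null. WT was therefore the lowest of the 4 libraries, and between the double null and Zfp871-/- the median of the mitosis list was 0.74, with 6 of the 57 genes at least 2-fold higher. The sign was positive for all 57 genes in that pair too.

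In mitosis, the cyclin-dependent kinase Cdk1 had 1107 counts in WT and 2946 in Trp53-/-, a log2 ratio of 1.20 (1.10 to 1.30). Its partner cyclins Ccnb1 and Ccna2 had log2 ratios of 1.23 and 1.36. Plk1, which drives mitotic entry, had 762 and 1839 counts and a log2 ratio of 1.06. The largest ratio of the list was that of Mybl2, a transcription factor that activates mitotic genes, with 219 and 1018 counts and a counting interval of 1.79 to 2.22 around its log2 ratio. The condensin subunit Ncapg2, the checkpoint kinase Ttk and the chromokinesin Kif4 followed at 1.78, 1.58 and 1.53. Cdc20 and Pttg1, which control the exit from mitosis, were among the least changed at 0.57 and 0.51.

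In the replication list the highest ratios were those of genes that load and fire origins. Cdc6, which loads the MCM helicase, had 149 counts in WT and 895 in Trp53-/-, a log2 ratio of 2.36 (2.12 to 2.64), and 261 and 1028 counts in the other pair. Mcm10, Ticrr and Cdt1, which act at origin licensing and firing, had log2 ratios of 2.02, 1.87 and 1.79. Gmnn, the inhibitor of Cdt1, lay at 1.78. The helicase subunit Mcm2 and the clamp Pcna were at 1.08 and 1.10, and the origin subunit Orc3 at -0.14. In recombination, Exo1, which resects DNA ends, had 161 and 793 counts and a log2 ratio of 2.08, and Blm, Brca1 and Rad54l lay at 1.94, 1.82 and 1.80. Fancc and Fance, of the Fanconi core complex, lay at -0.15 and -0.08.

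Upstream of division, 7 of 29 genes of G1 control were at least 2-fold higher and 1 was lower, with a median log2 ratio of 0.46. The shares over all 13709 genes were 9.26% and 10.3%. The 28 with a CPM of at least 1 in both libraries held 6 higher and 1 lower. E2f2, an activator E2F that passed the filter only through Trp53-/-, had 17 counts in WT and 129 in Trp53-/-. Its log2 ratio was 2.59 (1.98 to 3.54). The repressor E2Fs E2f7 and E2f8 lay at 1.56 and 1.34, and cyclin E2 (Ccne2) at 1.45. Myc had 937 and 2334 counts and a log2 ratio of 1.10. The D cyclins did not share this direction, with Ccnd1 at -0.37, Ccnd2 at -0.86 and Ccnd3 at 0.00. Rb1 lay at -0.98. Cdkn2b, the p15 inhibitor next to Cdkn2a, had 1246 and 668 counts and a log2 ratio of -1.11, opposite in sign to Cdkn2a.

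Promoters of the mitosis genes carried the CHR letters TTTGAA more often than promoters at large. Searched on both strands, TTTGAA stood in 33 of the 47 mitosis genes with a promoter in the table (70.2%) and in 8 of 47 replication genes (17%). It stood in 14.3% of the kept genes with a promoter and in 20.2% of all genes with one. TTTGAA and CCAAT together stood in 57.4% of the mitosis genes, in 5.89% of the kept genes and in 7.97% of all genes. Counted over promoters rather than genes, TTTGAA was in 17.9% and CCAAT in 37.4% of the 32851 windows. The CHR is known as the docking site of the DREAM complex, and CCAAT as that of the factor NF-Y. The Cdk1 promoter is printed because it holds 2 CHR and 3 CCAAT matches, in capitals on whichever strand they lie (ATTGG is CCAAT on the other strand).
Cdk1, chr10:69352913-69353162, minus strand: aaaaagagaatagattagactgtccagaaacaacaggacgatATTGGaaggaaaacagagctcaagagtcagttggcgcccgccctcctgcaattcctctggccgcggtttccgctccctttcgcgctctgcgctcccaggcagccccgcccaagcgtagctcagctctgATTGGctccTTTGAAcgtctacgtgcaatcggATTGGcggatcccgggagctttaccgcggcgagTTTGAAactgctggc

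Genes of macrophages were many-fold higher in Trp53-/- than in WT. Of 35 markers 32 were kept and 30 of these were at least 2-fold higher, with a median log2 ratio of 4.05, and no member was 2-fold lower. The 24 markers that also had a CPM of at least 1 in WT held 22 of the higher genes. Adgre1, the F4/80 antigen, had 89 counts in WT and 1884 in Trp53-/-, a log2 ratio of 4.16 (3.89 to 4.52). Csf1r, the receptor that macrophages need to survive, had 192 and 2698 counts, and the complement genes C1qa, C1qb and C1qc had log2 ratios of 4.31, 4.32 and 4.74. The pan-leukocyte phosphatase Ptprc had 36 and 751 counts and the myeloid transcription factor Spi1 had 13 and 405. Lyz2, the lysozyme, had 672 and 9136 counts, and was among the 10 genes past 2-fold with the largest gain in normalized CPM. In the other pair Adgre1 had 118 and 1621 counts, and 30 of the 32 markers were at least 2-fold higher, with a median of 3.48. Lgals3 and Mertk, which other cells also express, lay at -0.49 and -0.91.

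Among the 20 protein-coding genes with the highest log2 ratios and at least 100 counts, 16 passed the filter only through Trp53-/-, and Mmp9, Mmp12, Ctss and C1qc had a CPM of at least 1 in WT too. Of the 20, Ms4a6b, Ms4a6c, Ms4a7, Cd52, Fcgr1, Fcgr2b, Fcrls, C1qc, Ctss, Mmp12, Clec5a, Clec4a2, Slamf9, Lcp2 and Themis2 are known from myeloid or other leukocytes. Ms4a6b had 3 counts in WT and 238 in Trp53-/-, a log2 ratio of 5.43 (4.53 to 8.39). Mmp9, a gelatinase, had 39 and 1893 counts and a log2 ratio of 5.33, with 291 and 1940 in the other pair. The other names among the 20 were Oas3, Tifab, Spint1 and Rgs7bp. Of 33 genes with 0 counts in WT, Arhgap25 had the most in Trp53-/-, with 77 counts, at least 22.2-fold higher against a floor of 3 counts. Il1b, the cytokine interleukin 1 beta, had 0 counts in both p53-intact libraries, 70 in Trp53-/- and 44 in the double null, which is at least 20.2-fold higher in Trp53-/- than in WT.

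Interferon-stimulated genes were higher together. Of 53 such genes, all kept, 45 were at least 2-fold higher and none was 2-fold lower, and the median log2 ratio was 2.15. The 44 genes with a CPM of at least 1 in both libraries held 36 of the higher ones and had a median of 1.94. Between the double null and Zfp871-/- 39 of the 53 were at least 2-fold higher and the median was 1.62. Isg15, a ubiquitin-like modifier, had 352 counts in WT and 3718 in Trp53-/-, a log2 ratio of 3.18 (3.03 to 3.35), and 387 and 2921 in the other pair. Irf7, a transcription factor of the interferon response, had a log2 ratio of 2.98. The RNA sensors and effectors Oas2, Ifih1 and Ifit1 lay at 4.38, 1.99 and 2.39, and Oas3, with 3 and 232 counts, at 5.39 (4.50 to 8.35). The GTPases Iigp1 and Gbp3 lay at 4.01 and 3.75. Presentation of antigen showed smaller ratios at higher levels, with B2m at 9044 and 24086 counts (log2 ratio 1.20, 1.17 to 1.24) and H2-K1 at 2541 and 8747 (1.57). Rnf213, a large ubiquitin ligase that interferon induces, had 2771 and 14872 counts. Macrophage markers moved with these genes in both pairs, and their part in the interferon list was not tested. The summed level of the interferon list was 1571 CPM in WT and 4417 in Trp53-/-, beside 360 and 1972 CPM for the macrophage list.

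The interferon-stimulated response element, searched on both strands as GAAA, any 2 bases and GAAA, stood in 23 of 39 interferon genes with a promoter in the table (59%), in 3.99% of all genes and in 3.44% of all windows. Of all 389 kept genes with this match 84 were at least 2-fold higher (21.6%), beside 8.65% of kept genes with a promoter. The 389 genes include the 23 of the interferon list, so this share is not independent of that list. The promoters of Isg15 and Ifit1 are given because their genes stood high in Trp53-/-. The Isg15 window holds 3 overlapping matches in 1 run, and the Ifit1 stretch 2 matches on the other strand, where GAAA reads as TTTC. Capitals mark the matches.
Isg15, chr4:156200819-156201068, minus strand: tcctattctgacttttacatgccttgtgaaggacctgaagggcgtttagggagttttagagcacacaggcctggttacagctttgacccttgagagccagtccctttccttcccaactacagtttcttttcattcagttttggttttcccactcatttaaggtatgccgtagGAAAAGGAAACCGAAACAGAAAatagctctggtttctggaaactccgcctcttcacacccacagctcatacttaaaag
Ifit1, chr19:34640759-34640838, plus strand: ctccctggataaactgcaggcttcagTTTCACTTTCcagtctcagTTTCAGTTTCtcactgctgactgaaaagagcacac

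Chemokine genes went in both directions, with 15 of 23 kept genes 2-fold higher and 6 of them 2-fold lower. Of the 12 with a CPM of at least 1 in both libraries, 6 were 2-fold higher and 5 were 2-fold lower. The higher ones included ligands known from myeloid cells, such as Ccl9 with 71 and 1349 counts, Ccl3 with 2 and 95, and Cxcl10 with 22 and 500. Ccl2, which attracts monocytes, had 612 counts in WT and 4612 in Trp53-/-, a log2 ratio of 2.70 (2.58 to 2.83), beside 1.24 in the other pair. Cxcl12, the stromal ligand, did not differ beyond counting error at 0.02 (-0.03 to 0.07). The lower ones were Cxcl15, Ackr3, Cxcl5, Cxcl14, Cxcl1 and Cx3cl1. Cxcl14 had 3183 and 527 counts, and 2376 and 440 in the other pair. Cxcl5 had 1486 and 226 counts but 359 and 427 in the other pair, so for this gene only WT was high.

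**Figure D3:**
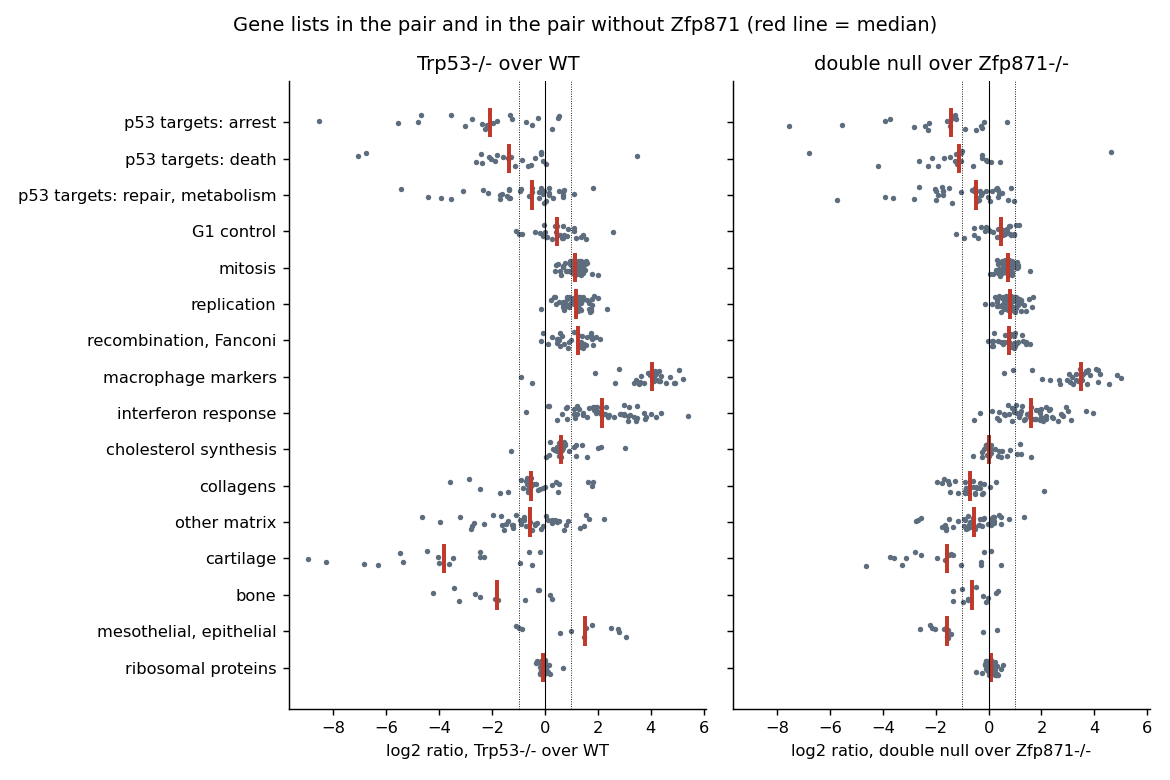
Log2 ratios of the kept members of 16 gene lists (1 point per gene, vertical spread arbitrary) in Trp53-/- over WT (left) and in the double null over Zfp871-/- (right), with the list median as a red line and 2-fold as dotted lines. The medians of the macrophage (4.05 and 3.48), interferon (2.15 and 1.62) and arrest lists (-2.10 and -1.44) have the same sign in both panels, and that of the mesothelial and epithelial list (1.51 and -1.58) does not.

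Cartilage genes were lower in Trp53-/-, and the ratios were larger in this pair than in the pair that does not use WT. Of 18 kept genes, 14 were at least 2-fold lower and none was higher, with a median log2 ratio of -3.83, or -3.55 with Col9a1 and Epyc, which had 0 counts in Trp53-/-, held at the floor of 3 counts. All 18 had a CPM of at least 1 in WT, and the 8 with such a level in both libraries had a median of -1.69. Between the double null and Zfp871-/- 13 of the 18 were 2-fold lower, 12 of them lower in both pairs, and the median was -1.58. Col2a1, the main collagen of cartilage, had 11633 counts in WT and 25 in Trp53-/-, a log2 ratio of -8.96 (-9.70 to -8.51). In the other pair it had 558 and 50 counts, a log2 ratio of -3.72. Col10a1, the collagen of hypertrophic cartilage, had 4863 and 16 counts, and 183 and 7 in the other pair. Prg4, the lubricating proteoglycan of joints, had 1327 and 32 counts, and 232 and 40 in the other pair. Sox9, the master regulator of cartilage, differed little, with 798 and 654 counts, while its partners Sox5 and Sox6 lay at -4.02 and -6.30. In bone genes 7 of 12 were at least 2-fold lower, with a median of -1.83, and 4 of these 7 passed the filter only through WT. The 8 genes with a CPM of at least 1 in both libraries held 3 lower ones and had a median of -0.52. Without WT, in the other pair, 2 of the 12 were 2-fold lower and the median was -0.62. Runx2 lay at -0.27 and the matrix protein Spp1 at -1.77, beside -0.01 and -0.78 in the other pair. 

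Genes that mark position along the limb and trunk differed in the same libraries. Of 33 kept Hox genes 17 were 2-fold higher and 6 were 2-fold lower, and the 24 with a CPM of at least 1 in both libraries held 14 of the higher and 1 of the lower genes. Hoxd10, Hoxd11, Hoxd12, Hoxd13 and Hoxa13, which pattern the far end of the limb, were lower in Trp53-/-. Hoxd13 had 1904 counts in WT and 14 in Trp53-/-, beside 142 and 14 in the other pair, and its log2 ratios were -7.10 (-8.17 to -6.55) and -3.45. Hoxd12 had 140 counts in WT and 0 in Trp53-/-, at least 54-fold lower. All 8 kept Hoxb genes and all 5 kept Hoxc genes of paralog groups up to 9 were at least 2-fold higher, with log2 ratios of 1.20 to 2.19 and 1.22 to 2.38. In the other pair the same genes lay between -0.14 and 0.25 and between -0.61 and 0.19, so the higher level of Hoxb and proximal Hoxc genes held for this pair and not for the other. The distal genes did not all share a direction: Hoxc10 and Hoxc11 were higher at 2.12 and 3.34 (0.46 and 2.01 in the other pair), while Hoxa11 was lower at -1.54, with 0.90 in the other pair. Hoxb9 had 428 counts in WT against 1527, 973 and 1347 in Trp53-/-, Zfp871-/- and the double null. Among 42 other position factors 20 were at least 2-fold lower and 4 higher, of which 8 and 3 had a CPM of at least 1 in both libraries. In the other pair 15 of the 42 were 2-fold lower and none was higher. Tbx4, of the hindlimb, had 193 and 8 counts (40 and 5 in the other pair), Lhx2 had 421 and 19 (22 and 14) and Msx2 had 245 and 13 (50 and 23). En1 was higher with 230 and 1167 counts (391 and 837). The numbers of cells from each body region in a culture were not measured.

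**Figure D4:**
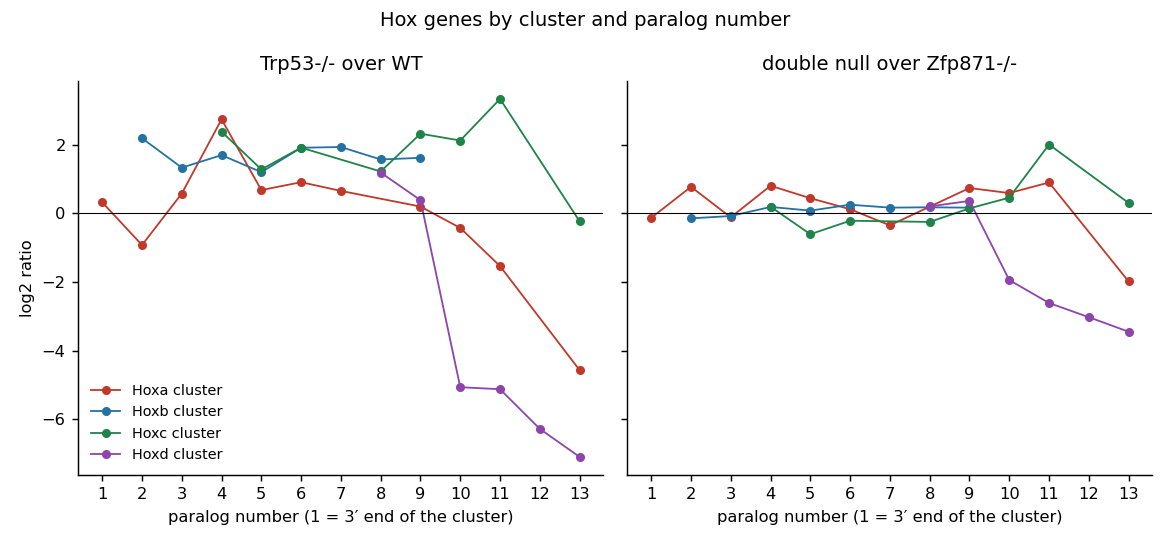
Log2 ratio (vertical axis) of the 33 kept Hox genes by paralog number (horizontal axis) and cluster (colour), for Trp53-/- over WT (left) and the double null over Zfp871-/- (right). The Hoxd genes from number 10 on and Hoxa13 lie below 0 in both panels, and the Hoxb line lies above 1 in the left panel and near 0 in the right panel.

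The matrix of the fibroblasts shifted in part. Of 28 collagen genes 5 were 2-fold lower and 3 were 2-fold higher, with a median log2 ratio of -0.54. Over all 13709 genes 10.3% were 2-fold lower and 9.26% were 2-fold higher. The 25 collagen genes with a CPM of at least 1 in both libraries held 4 lower and 1 higher. Col1a1 had 280560 counts in WT and 224041 in Trp53-/-, a log2 ratio of -0.54, and Col3a1 lay at -0.82. Col18a1 and Col8a1 were lower at -2.88 and -1.69. Of 46 other matrix genes 17 were at least 2-fold lower and 5 higher, with a median of -0.55. Eln, the elastin gene, had 11907 counts in WT and 547 in Trp53-/-, and 2773 and 504 in the other pair. Its ratio on the log2 scale was -4.65 (-4.78 to -4.53). Lox, which crosslinks collagen and elastin, had 87156 and 43771 counts and showed the largest loss in normalized CPM of all genes past 2-fold, from 4617 to 2003. Ccn5, Ogn and Lum lay at -3.96, -2.82 and -2.69. Postn, a matrix protein of periosteum and wounds, showed the largest gain of the genes past 2-fold, from 33682 to 97312 counts and a log2 ratio of 1.32. In the other pair Lox and Postn lay at -0.77 and 0.47, so neither was past 2-fold there. In the fibroblast list 6 of 20 genes were 2-fold higher and 3 were 2-fold lower, 12 had a negative log2 ratio and the median was -0.33. The summed level of this list was 49877 CPM in WT and 41229 in Trp53-/-. Thy1, Dcn and Dpt were among the higher ones at 1.71, 1.66 and 3.62, and Pdgfra had 2081 and 6804 counts, whereas Lum, Mfap5 and Pi16 were the lower ones, with Mfap5 at -2.31. In the other pair Thy1 and Dcn lay at 0.14 and -0.58, with Zfp871-/- (16380 and 3626 counts) above WT (6549 and 1504).

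Proteases and secreted factors known from senescent fibroblasts did not move as a group. Of 31 secretory genes 8 were 2-fold higher and 12 were 2-fold lower, with a median log2 ratio of -0.38. Igfbp4 and Igfbp2, which bind insulin-like growth factors, had 7671 and 584 counts and 12635 and 1225 counts. The protease Mmp2 and its inhibitors Timp1 and Timp2 were lower at -2.03, -1.25 and -1.37. Timp2 had 35094 and 15743 counts, but 19851 and 15848 in the other pair, a log2 ratio of -0.63 there. Igfbp5 was higher, with 3843 and 14952 counts and a log2 ratio of 1.75. Mmp9 and Mmp12, which macrophages also make, were the protease genes with the highest ratios at 5.33 and 4.91. Lmnb1, a lamin lost in senescence, was higher with 734 and 2393 counts and a log2 ratio of 1.49.

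Signalling genes of development were lower more often than higher. In the TGF-beta and BMP list 16 of 41 were at least 2-fold lower and 2 higher, beside 10.3% and 9.26% of all 13709 genes. The 37 with a CPM of at least 1 in both libraries held 12 lower and 2 higher genes. Bmp4 had 2303 counts in WT and 90 in Trp53-/-, a log2 ratio of -4.86, but 198 in Zfp871-/-, so WT was again far above the rest. Fst, the activin antagonist, had 3616 and 1024 counts and 3228 and 805 in the other pair. In the Wnt list 14 of 34 were at least 2-fold lower and 1 higher. The 29 with a CPM of at least 1 in both libraries held 11 of the lower genes and not the higher one. In the other pair 8 of the 34 were 2-fold lower and 1 higher, and 3 were lower in both pairs. The agonists Rspo2 and Rspo3 had log2 ratios of -3.65 and -2.23 here and of -0.44 and 0.04 in the other pair, and Sfrp1, a Wnt antagonist, lay at -1.74 and -2.59. Lef1, a nuclear effector of Wnt, was the only higher member at 2.05.

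In metabolism, 28 of 29 cholesterol genes had a positive log2 ratio, 8 were at least 2-fold higher, and the median was 0.62. The list ran from -1.27 to 3.02, with the enzymes Hmgcs1 at 0.70 (0.64 to 0.77) and Sqle at 0.38. Apoe and Ch25h, which macrophages also express, lay at 2.10 and 2.01. In the pair without Zfp871 the median of the list was 0.03. Of 27 antioxidant genes 5 were at least 2-fold lower and none higher. Sod3, the extracellular superoxide dismutase, had 4379 and 175 counts, and the quinone reductase Nqo1 had 4064 and 563, with log2 ratios of -4.84 and -3.06. The glutathione genes Gclc and Gclm and the regulator Nfe2l2 lay at -0.37, -0.18 and -0.69. No member of the 39 ribosomal protein genes was 2-fold apart, and their median was -0.08.

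Mitochondrial transcripts differed little, with 1 exception in each direction. The 14 kept genes had a median log2 ratio of -0.28. mt-Nd3, a subunit of complex I, had 34 counts in WT and 309 in Trp53-/-, and 38 and 359 in the other pair, a log2 ratio of 2.91 (2.46 to 3.53). mt-Rnr1, the small ribosomal RNA, had 3530 and 1549 counts, and 4531 and 2279 in the other pair. CT010467.1, a gene typed as rRNA in the annotation, had 79707 and 39613 counts, and 120124 and 65515 in the other pair. Ribosomal RNA left in a library thus stood lower in both p53-null libraries, and its part in other differences was not tested.

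Other lists moved little, in both directions or with few kept members. Over all 13709 genes, 9.26% were 2-fold higher and 10.3% were 2-fold lower. Of 31 glycolysis and hypoxia genes 2 were 2-fold higher and 2 were 2-fold lower, of 28 stress response genes 1 was higher and 2 were lower, and of 28 fatty acid genes 2 were higher and 5 were lower. Immediate early genes held 3 higher and 5 lower members of 25, serpins 3 and 4 of 17, imprinted genes 2 and 6 of 25, and contractile genes none higher and 2 lower of 21. In the list of insulin-like growth factors 2 of 20 were higher and 5 lower, and Igf2 had 468 counts in WT and 85 in Trp53-/-. Among markers of other tissues that a culture of embryo cells could hold, few were kept: 7 of 18 endothelial (2 higher, 2 lower), 1 of 15 erythroid, 9 of 29 skeletal muscle (1 higher, 3 lower) and 10 of 24 neural genes (2 higher, 5 lower). The neural list had a median log2 ratio of -1.03. Its 6 genes with a CPM of at least 1 in both libraries held 1 higher and 2 lower, with a median of -0.38. Of 10 kept adipocyte genes 3 were higher and 5 lower, with a median log2 ratio of -0.99. Of these 5 lower genes 4 passed the filter only through WT, and the 6 genes with a CPM of at least 1 in both libraries held 3 higher and 1 lower, with a median of 0.93. Lpl, a lipase that macrophages also make, had 414 and 4349 counts, and the fatty acid carrier gene Cd36 had 47 and 934, beside 70 and 1065 in the other pair, whereas Plin4 and Fabp4 had log2 ratios of -4.81 and -3.21, beside -1.14 and 0.35 in the other pair.

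Mesothelial and epithelial genes had the opposite sign in both pairs. Of 12 kept genes 7 were at least 2-fold higher and 1 lower, with a median log2 ratio of 1.51. The 7 higher genes passed the filter only through Trp53-/-, where they were high, so this count and median follow in part from the filter. In the double null over Zfp871-/- none was 2-fold higher, 10 were 2-fold lower and the median was -1.58. Levels were low, with summed CPM of 19.7 in WT and 32.2 in Trp53-/-, beside 51.6 for Zfp871-/- and 22.9 for the double null. Krt18, a keratin of simple epithelia, had 9 counts in WT and 86 in Trp53-/-, beside 75 for Zfp871-/- and 29 for the double null. The p53-null and p53-intact libraries thus overlapped in Krt18. Only 4 members had a CPM of at least 1 in both libraries of the pair. Of these 0 were 2-fold higher and 1 was 2-fold lower, and their median was -0.21.

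**Figure D5:**
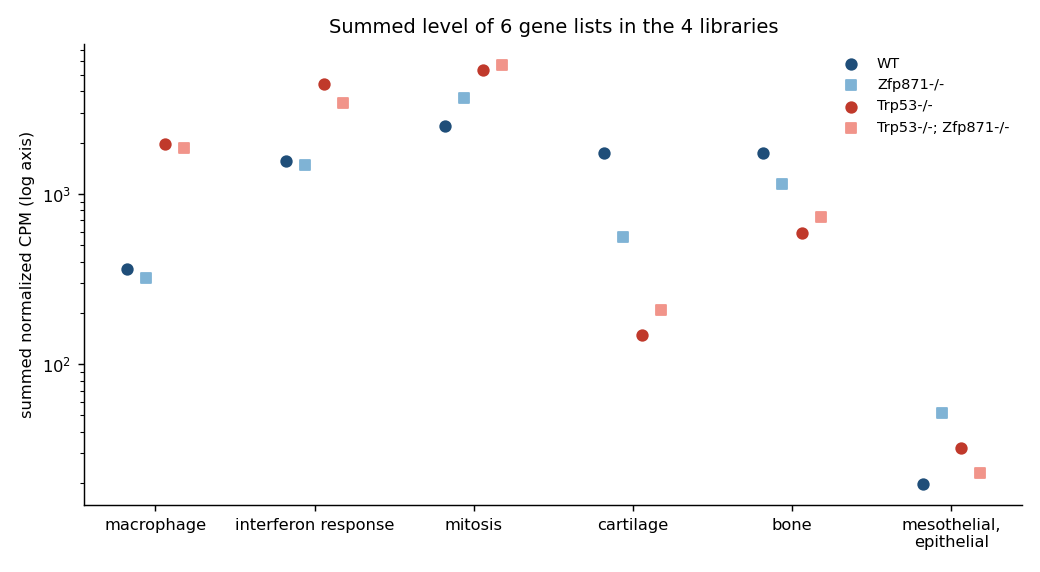
Summed normalized CPM (log axis) of the kept genes of 6 lists in the 4 libraries, 1 point per library. The macrophage sum is 360 and 321 CPM in WT and Zfp871-/- against 1972 and 1866 in the p53-null libraries, whereas the cartilage sum is 1737 CPM in WT and 556 in Zfp871-/-, both above the p53-null libraries (149 and 207).

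The genes with the lowest ratios joined p53 targets with cartilage and limb genes. Below Col2a1, Inka2 and Col10a1 came Erg, an ETS factor of endothelium and cartilage, with 406 counts in WT and 0 in Trp53-/-, at least 157-fold lower, and 31 and 4 counts in the other pair. Smoc1, a matrix antagonist of BMP, had 1619 and 8 counts but only 200 in Zfp871-/-. Ano3, a scramblase of the anoctamin family, had 756 counts in WT and 773 in Zfp871-/- against 4 and 2 in the p53-null libraries, so that it separated the libraries by p53 status as sharply as Inka2. The log2 ratio of Ano3 was -7.17 (-9.65 to -6.41). Anxa8, an annexin, had 9374 and 133 counts, and 2385 and 229 in the other pair. Klhdc7a, F5, Cav3 and Tenm1 had 101 to 129 counts in WT and 0 in Trp53-/-, at least 39-fold lower each. Klhdc7a had 51 and 0 counts in the other pair, while F5, Cav3 and Tenm1 had 11, 11 and 9 counts in Zfp871-/-, so for these 3 genes WT alone was high. In all 34 genes had 0 counts in Trp53-/-.

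The higher and lower genes were spread over the genome. The median log2 ratio of an autosome or the X ran from -0.12 on chromosome 7 to 0.06 on chromosome 3. Within 5 Mb of Trp53 on chromosome 11, 112 genes were kept, of which 15 were at least 2-fold higher and 10 lower, with a median of 0.01. The shares over all 13709 genes were 9.26% higher and 10.3% lower. Within 2 Mb the higher genes included Aurkb (316 and 1039 counts), Cd68 (2.80) and Cxcl16 (2.24), which belong to lists described above, and Ntn1, a netrin, with 578 and 2304 counts. Tmem88, an inhibitor of Wnt signalling, was lower with 80 and 10 counts. At the threshold of membership, 0610038B21Rik, with 20 counts in WT and 17 in Trp53-/-, lay just inside, and Trim6, with 13 and 21 counts, just outside.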

How the data were processed

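RNA was sequenced from 4 libraries of mouse embryonic fibroblasts, and 2 of them, Trp53-/- and WT, make up the comparison. The authors deposited raw counts per Ensembl gene. The submitters' processing notes name fastp, STAR, featureCounts and the build mm10, and the sources used here give no versions, annotation release or strand setting. The authors also deposited a normalized table per library, read as FPKM because a gene's ratio of count to value is the same in every library up to 1 factor for the library, as a division by gene length and depth gives. It served only for levels per length. Symbols and coordinates are from GENCODE M21 (54495 of 54532 IDs matched).

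Counts were normalized with TMM factors of edgeR 4.0.16 (R 4.3.3) over the 4 libraries: 0.978 for WT, 1.0406 for Trp53-/-, 0.9438 for Zfp871-/- and 1.041 for the double null. Log2 ratios used a prior count of 2. The 95% intervals follow from the exact Clopper-Pearson interval of the Trp53-/- share of a gene's summed counts. Like the floor of 3 counts they cover counting error alone, and reads that carry no molecular identifiers are not independent molecules. The ratio and its interval were tried on simulated counts drawn with counting error alone. This checks the computation and cannot show how the interval covers variation between cultures. With 1 library per genotype no p-value was computed. The 43 gene lists and the members were chosen with earlier results of these data known. Genes named are the 20 highest and 20 lowest protein-coding log2 ratios (at least 100 counts), the 10 largest CPM gains and losses past 2-fold, the 5 highest and lowest long noncoding RNAs (at least 50 counts), the first 3 and up to 5 most different members of each list, genes within 2 Mb of Trp53 and the genes at the CPM threshold. Other list members, Rps27l, and Arhgap25 among genes at 0 were named after their values were seen. Promoter sequences are RefSeq's for GRCm38.p6. Alternatives were DESeq2 1.42.0 size factors, total counts, 3 other filters, a prior count of 0.5 and a call rule on the interval. The pair without the WT library was added after seeing the data.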

Additional observations from a re-analysis of the deposited data

Results flagged for a closer look

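In the mesothelial and epithelial genes the difference between p53-null and p53-intact libraries went past 2-fold in opposite directions on both Zfp871 backgrounds. The 7 genes that were higher in Trp53-/- than in WT passed the filter only through Trp53-/-, so their direction in that pair follows in part from the filter, and the 4 genes with a CPM of at least 1 in both libraries had a median of -0.21. The list median was 1.51 in Trp53-/- over WT and -1.58 in the double null over Zfp871-/-. The same was seen for Krt8 (3.05 and -2.20), Krt18 (2.81 and -1.60), Lrrn4 (2.77 and -1.54), Wt1 (2.48 and -2.01), Upk3b (1.78 and -1.42) and Bnc1 (1.48 and -1.54). The transcription factor Gata4 had 13 counts in WT and 47 in Trp53-/- (log2 ratio 1.52), against 11 and 2 in the other pair (-1.90). The chemokine Cxcl1 went the other way, with 506 and 106 counts (-2.44) against 57 and 173 (1.27). These differences between backgrounds were not tested, since each library stands alone. Groups of at least 4 samples, in which a library far from the others could be tested for, do not occur in this design.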

How the results depend on the processing

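No paired analysis was possible because each genotype has 1 library. Against 1269 higher and 1407 lower genes, keeping every gene with at least 1 count gave 2558 and 2998 of 24064 genes. A CPM of at least 1 in both libraries gave 774 and 860 of 12307 genes, and a mean CPM of at least 5 gave 705 and 745 of 10764. The filter on both libraries leaves out the 715 genes that passed only in Trp53-/-, with 495 higher genes. It also leaves out the 687 that passed only in WT, with 547 lower ones. The double null over Zfp871-/-, added after seeing the data, gave 782 higher and 946 lower, and the cause of the smaller count was not tested. DESeq2 size factors, a prior count of 0.5 and the interval rule kept both counts within 1.5 times. Scaling by total counts gave 1398 and 1277, moved the median of all genes from -0.0044 to 0.08 and turned the majority of calls from lower to higher (share of higher calls 52.3%, beside 47.4%). The mesothelial and epithelial median changed sign, to -0.21 over the 4 members with a CPM of at least 1 in both libraries and to -1.58 in the pair without WT. The adipocyte median changed sign as well, from -0.99 to 0.93 over the members with a CPM of at least 1 in both libraries and 0.17 over those with a mean CPM of at least 5, and so did the skeletal muscle median, from -0.63 to 0.01 and 0.39. Other sign changes were in lists with medians from -0.16 to 0.13 in the comparison as reported. All 351 named genes kept their ratio within the counting interval with DESeq2 size factors and with a prior count of 0.5, and 80 left it under total counts. Depth limits genes with few counts, whose intervals span several-fold.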
